A study of Mus musculus with 24 samples.

Results

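The 9 genes described here encode transcription factors that pattern the early brain from forebrain to hindbrain, and they were taken by name from the 51912 genes of the RNA-Seq count tables: Otx1, Otx2, Six3, Lhx2, Emx2, En1, En2, Gbx2 and Egr2. All 9 were found. Expression was measured by RNA-Seq in 3 groups of 3 libraries. ESCs were wild-type TC-1 mouse embryonic stem cells (strain C57BL/6 X 129S5) grown with LIF, a cytokine that holds ESCs in self-renewal. NPs were neuronal progenitors made in vitro from these ESCs as floating cellular aggregates, with 5 µM retinoic acid from day 4 and collection on day 8. TET TKO cells were ESCs in which Tet1, Tet2 and Tet3, the genes of the enzymes that oxidise 5-methylcytosine, were knocked out; their strain was given as C57BL/6 X 129/sv, so that genotype and cell line cannot be told apart. The study asked which transcription factors change DNA methylation at their binding sites, and these libraries showed which factors each cell type expressed.

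The early neural tube is divided along its length by transcription factors that are expressed in adjoining domains. Otx2 and Otx1 mark the forebrain and midbrain, Gbx2 marks the anterior hindbrain, and the border between the Otx2 and Gbx2 domains places the isthmus, a signalling centre around which En1 and En2 are expressed. Six3 acts in the most anterior forebrain and the eye field, Lhx2 in the eye field and cortex, and Emx2 in the dorsal forebrain, while Egr2 (Krox20) defines rhombomeres of the hindbrain. Some of these factors have other roles: Otx2 is expressed in pluripotent cells on their way to the primed state of the epiblast, Gbx2 is a LIF target in ESCs, and Emx2 acts in the urogenital tract. Retinoic acid posteriorises neural tissue in culture.

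Total counts per library were 20570050 to 23976914 in ESCs, 20519702 to 22132988 in NPs and 80704741 to 93210102 in TET TKO cells, so that low levels were measured most finely in the knockout. Counts over the whole gene for Tet1 were 980 ± 59.1 CPM (counts scaled to library size; SD, n = 3) in ESCs and 204 ± 35.9 in TET TKO cells, those for Tet2 320 ± 41.6 and 41.8 ± 3.33, and those for Tet3 11.9 ± 1.24 and 9.19 ± 1.21. The 8 ESC markers summed to 4890 to 5029 CPM in ESCs, 121 to 150 CPM in NPs and 3782 to 4672 CPM in TET TKO cells. Neural progenitor markers (8 genes) summed to 308 to 345, 1581 to 2257 and 89.1 to 211 CPM in the same order. Neuron markers (5 genes) summed to 430 to 517, 299 to 619 and 190 to 302 CPM, and went both ways in NPs, with 3 called higher and 1 lower. The NPs also held RNA of genes listed as markers of other lineages. Endoderm markers (5 genes, Foxa2 and Sox17 among them) summed to 56.3 to 73.4 CPM against 3.99 to 6.64 in ESCs. Mesoderm markers (5 genes) summed to 18.3 to 72.4 against 8.42 to 10.3, and neural crest markers (5 genes) to 56.4 to 61.6 against 10.2 to 14.1. In such bulk samples fewer cells of a type and less RNA per cell cannot be told apart.

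The contrast between Otx2 and Gbx2 is the one the results turn on. The 250 bases before the first RefSeq start of each are shown (build GRCm38.p6, 5′ to 3′ on the strand of the gene, CpGs in capitals). The methylation assay of the study read CpGs of an inserted fragment, not of these stretches. The Otx2 stretch lies at chr14:48667645-48667894 on the minus strand and the Gbx2 stretch at chr1:89931177-89931426 on the minus strand.
Otx2: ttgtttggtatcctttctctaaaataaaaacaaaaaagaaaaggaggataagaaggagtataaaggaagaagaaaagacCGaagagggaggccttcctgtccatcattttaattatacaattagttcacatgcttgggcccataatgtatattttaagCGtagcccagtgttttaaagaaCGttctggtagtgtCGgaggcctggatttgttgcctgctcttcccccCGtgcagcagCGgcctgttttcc
Gbx2: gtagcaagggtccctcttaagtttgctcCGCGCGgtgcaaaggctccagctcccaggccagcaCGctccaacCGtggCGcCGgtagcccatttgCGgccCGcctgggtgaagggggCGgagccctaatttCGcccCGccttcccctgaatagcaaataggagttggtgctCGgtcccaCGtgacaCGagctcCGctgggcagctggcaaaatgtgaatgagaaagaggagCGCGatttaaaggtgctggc
These 250 bases hold 6 CpGs in Otx2 and 18 in Gbx2. In windows from 250 bases before to 50 bases after a start, 32851 windows of 27025 genes had a median of 7 CpGs (quartiles 3 and 20). The 4 Otx2 starts in the table had 6, 8, 16 and 11 CpGs. The windows of the other factors had these numbers of CpGs: Gbx2 27, Emx2 26, En1 23, Six3 14, Lhx2 34 and 29, and 16 to 32 over 5 starts of Egr2. Otx1 and En2 had no entry. Of the motifs searched on both strands, TAATCC, the core bound by OTX proteins, occurred in 7.06% of all windows and in 1 Otx2 window. ACAAT, a SOX core, occurred in 31.0% of all windows and in 2 Otx2 windows, 1 of them the stretch printed above. ATTTGCA, part of the octamer bound by POU factors, occurred in 4.02% of all windows and in 3 overlapping Egr2 windows. AGGTCA, a repeat unit of retinoic acid receptor sites, occurred in 16.3% of all windows and in none of the 15 windows of these genes. A match describes the letters only.

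Otx2 had the highest mean RPKM of the 9 factors in ESCs, with Gbx2 close by, and fell to a trace in NPs. The RPKM of Gbx2 may be too low because of an overlapping gene, as given below, so the order of these 2 in ESCs is not settled. Otx2 (ENSMUSG00000021848, chr14:48657679-48667644) was at 13.0, 11.4 and 14.3 RPKM (reads scaled to gene length and library size) in the ESC libraries and at 0.263, 0.182 and 0.292 RPKM in the NP libraries, from 846 to 1195 counts against 15 to 23. No library of one group came near the other. The log2 fold change of NPs against ESCs was -5.71 (SE 0.24, adjusted p = 7.95e-07, edgeR quasi-likelihood test, n = 3 per group). A gene was called when its adjusted p was under 0.001 and its fold change at least 3, after genes under 1 RPKM in every library of the comparison were set aside. Of the 15197 genes tested in this comparison, 22.4% were called, 12.4% higher and 9.98% lower in NPs. Of the 9 factors, 5 passed the filter and 2 of those were called, Otx2 lower and Emx2 higher. Otx2 passed the filter through its ESC libraries alone, and Emx2 and Lhx2 through their NP libraries alone, so that the number called among those that passed carries no weight of its own.

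**Figure D1:**
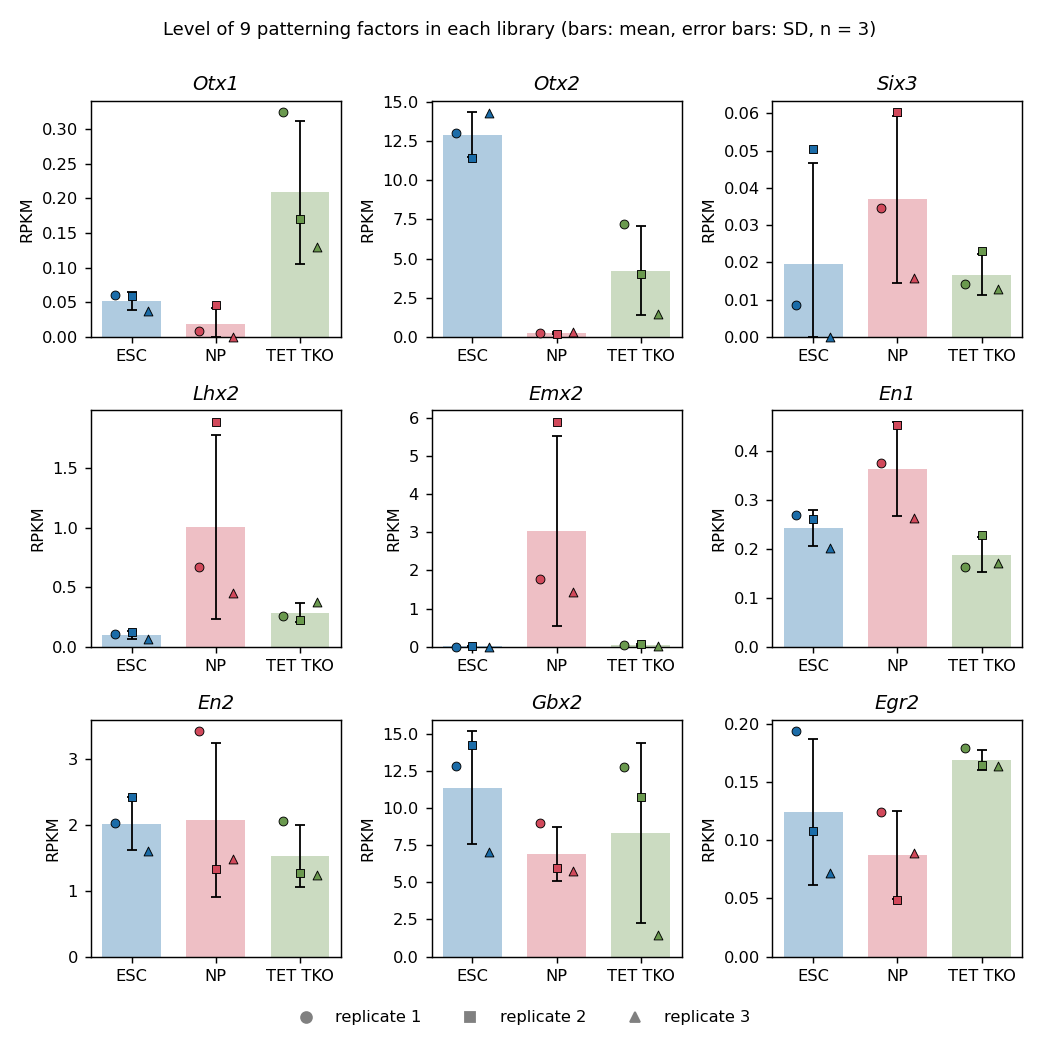
Level of each of the 9 factors in RPKM (vertical axes, each from 0 and to its own scale) in ESCs, NPs and TET TKO cells; points are libraries, bars means and error bars SD (n = 3). Otx2 stands at 11.4 to 14.3 RPKM in ESCs and under 0.3 RPKM in NPs, whereas Emx2 and Lhx2 are highest in NP replicate 2.

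Its paralog Otx1 (ENSMUSG00000005917, chr11:21994764-22002897), which acts with Otx2 in the forebrain and midbrain, was near the floor in both cell types, with 7, 7 and 5 counts in ESCs and 1, 6 and 0 in NPs. That is 0.0607, 0.0591 and 0.0375 RPKM against 0.00866, 0.0455 and 0 RPKM. Otx1 therefore did not pass the filter. Fitted without it, the log2 fold change was -1.45 (SE 0.84, adjusted p = 0.185, edgeR). The share of Otx1 in the summed RPKM of Otx1 and Otx2 was 0.261% to 0.516% in ESCs and, on far fewer counts, 0% to 20.04% in NPs.

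Gbx2, the hindbrain counterpart of Otx2, was the most abundant of the 9 in NPs. Gbx2 (ENSMUSG00000034486, chr1:89927956-89931179) was at 12.8, 14.2 and 7.06 RPKM in ESCs and at 8.97, 5.93 and 5.77 RPKM in NPs. The ranges overlapped through ESC replicate 3, and the log2 fold change was -0.72 (SE 0.29, adjusted p = 0.0570, edgeR), which did not pass. Set side by side in each library, Gbx2 was 0.981, 1.25 and 0.494 times the Otx2 level in ESCs and 34.2, 32.7 and 19.7 times that level in NPs. Gbx2 shares 946 exonic bases, 43.5% of its exons, with the gene D130058E05Rik on the opposite strand. Reads were counted without regard to strand, so reads from the shared bases cannot be told apart, and the counting program by default leaves them unassigned. The RPKM of Gbx2 was nevertheless divided by all its exonic bases, the shared ones included. Where shared reads were left out, the RPKM of Gbx2 and its ratios to Otx2 are too low in every group. D130058E05Rik itself had 68, 97 and 67 counts in ESCs and 174, 196 and 227 in NPs, a log2 fold change of 1.33 (SE 0.26, adjusted p = 0.00215, edgeR) that did not pass, while Gbx2 had 378 to 676 counts in ESCs and 291 to 416 in NPs.

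**Figure D2:**
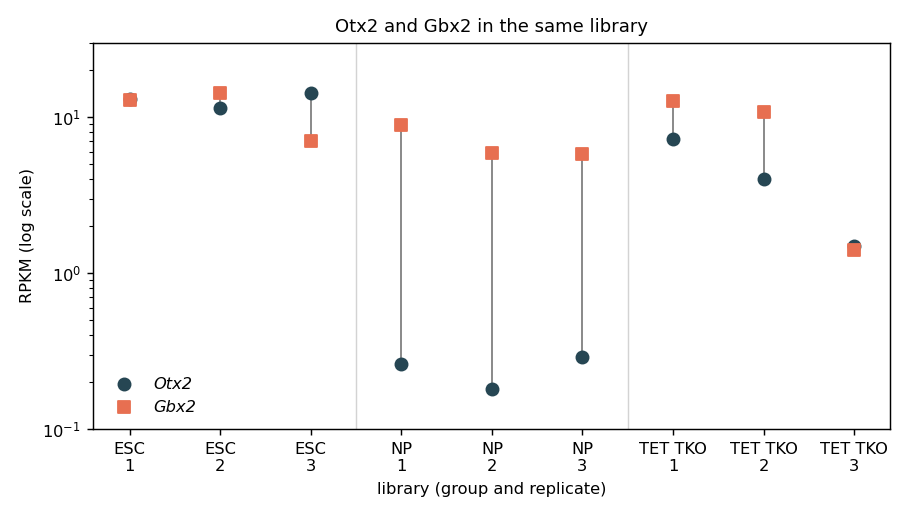
Otx2 (circles) and Gbx2 (squares) in each of the 9 libraries, in RPKM on a log axis, with a line joining the values of a library. In ESCs the ratio of Gbx2 to Otx2 is 0.494 to 1.25, in NPs 19.7 to 34.2, and in TET TKO cells 0.952 to 2.68. The length of Gbx2 includes the bases shared with D130058E05Rik, so its values may be too low.

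The Engrailed genes, which act at the isthmus and in the midbrain, did not pass the test between ESCs and NPs. En2 (ENSMUSG00000039095, chr5:28165694-28172166) was at 2.03, 2.42 and 1.61 RPKM in ESCs and at 3.42, 1.33 and 1.49 RPKM in NPs. NP replicate 1 was above and the other NP libraries were below every ESC library, and the log2 fold change was 0.04 (SE 0.38, adjusted p = 0.936, edgeR). Without NP replicate 1 it was -0.52. En1 (ENSMUSG00000058665, chr1:120602418-120607992) was lower, at 0.269, 0.262 and 0.201 RPKM in ESCs and 0.376, 0.455 and 0.263 RPKM in NPs, from 13 to 29 counts. It did not pass the filter, and without the filter its log2 fold change was 0.58 (SE 0.44, adjusted p = 0.337, edgeR). En1 made up 9.76% to 11.7% of the summed RPKM of En1 and En2 in ESCs and 9.89% to 25.5% in NPs.

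Of the forebrain factors, Emx2 rose in NPs from next to nothing. Emx2 (ENSMUSG00000043969, chr19:59458372-59465357) had 0, 1 and 0 counts in ESCs and 114, 431 and 100 counts in NPs, which is 1.78, 5.91 and 1.44 RPKM in NPs. Every NP library was above every ESC library, and NP replicate 2 was highest. The normalised counts stood in a ratio of 635 (95% exact interval 114 to 25119, counting error only), and the gene was called higher (adjusted p = 9.89e-05, edgeR, n = 3 per group). The call was lost without ESC replicate 3, at an adjusted p of 0.00103. Emx2 shares 264 exonic bases, 8.79% of its exons, with Emx2os on the opposite strand, which had no count in ESCs and 24, 33 and 22 counts in NPs.

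Lhx2 (ENSMUSG00000000247, chr2:38339281-38369733) showed the same order of NP libraries at a lower level, with 0.107, 0.125 and 0.0648 RPKM in ESCs and 0.673, 1.89 and 0.452 RPKM in NPs. The groups did not overlap. Its log2 fold change of 3.33 (SE 0.61, adjusted p = 0.00142, edgeR) missed the limit on p, and Lhx2 was called by DESeq2 (adjusted p = 1.95e-06). Only NP replicate 2 was above 1 RPKM, so that without it Lhx2 was not tested. In the same library the summed mesoderm markers were at 72.4 CPM against 34.2 and 18.3 CPM in NP replicates 1 and 3. Most of each sum came from 1 of these markers, Meox1, at 53.1 against 19.7 and 10.6 CPM. NP replicate 2 was the lowest NP library for the summed forebrain list (190 against 253 and 251 CPM). It was also lowest for the neural progenitor markers (1581 against 2257 and 1812 CPM) and the neuron markers (299 against 619 and 580 CPM). The part of mesoderm RNA in the Emx2 and Lhx2 values was not tested.

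Six3 and Egr2, at the 2 ends of the series, stayed near the floor. Six3 (ENSMUSG00000038805, chr17:85613608-85629302) had 1, 6 and 0 counts in ESCs and 4, 8 and 2 in NPs, at most 0.0604 RPKM. Without the filter its log2 fold change was 0.91 (SE 0.92, adjusted p = 0.470, edgeR), a difference that was not detectable at this depth. Six3os1, on the opposite strand with 106 exonic bases in common, had 2, 0 and 0 counts in ESCs and 15, 45 and 10 in NPs. Egr2 (ENSMUSG00000037868, chr10:67535475-67542188) had 14, 8 and 6 counts in ESCs and 9, 4 and 7 in NPs, or 0.0718 to 0.194 against 0.0484 to 0.124 RPKM. Without the filter its log2 fold change was -0.51 (SE 0.60, adjusted p = 0.505, edgeR).

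**Figure D3:**
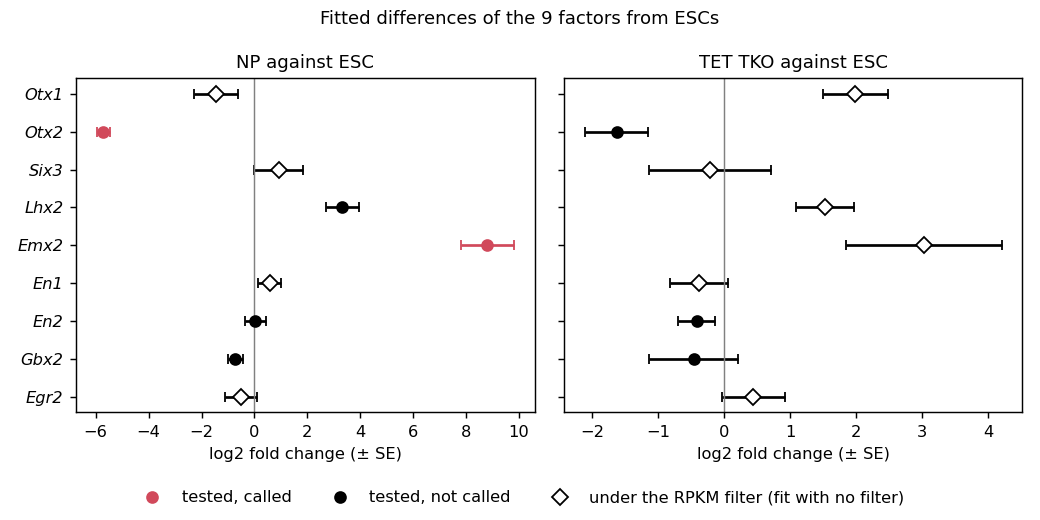
Log2 fold changes with SE (horizontal axes, n = 3 per group) of the 9 factors in NPs and in TET TKO cells against ESCs; filled circles passed the filter of 1 RPKM, red ones were called, and open diamonds come from the fit without a filter. Otx2 and Emx2 are the called factors in NPs, none is called in TET TKO cells, and the Emx2 points rest on 1 count in ESCs, so their size is no bound.

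Other genes that act along the same axis were read from lists chosen from textbook knowledge with earlier results of these data known. The hindbrain list had the largest median, but given that choice the order of the lists is no test. Of 16 genes of the hindbrain and rhombomeres, 14 were tested, 13 rose in NPs and none fell, with a median log2 fold change of 8.82 (8.59 with the 3 genes that had 3 or fewer counts in ESCs set to 3 counts) against 0.04 over all genes tested. The 13 that rose passed the filter through their NP libraries alone, so that they had to be higher there. Without the filter the median of all 16 was 7.48. Hoxb3 went from 1 count over the ESC libraries to 19.4 ± 2.89 RPKM (SD, n = 3) in NPs and Hoxb2 from 1 count to 13.3 ± 0.589 RPKM; both are Hox genes of the hindbrain. Cyp26b1, a retinoic acid degrading enzyme, was at 0.0678 ± 0.0362 RPKM in ESCs and 112 ± 40.3 RPKM in NPs (log2 fold change 10.69, SE 0.43). Epha4, an ephrin receptor that Egr2 is known to switch on, was the tested gene that did not pass (-0.44, SE 0.26, adjusted p = 0.163, edgeR).

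Of 14 genes of the midbrain and isthmus, 13 were tested, 6 rose and 2 fell, with a median of 1.76. Of the 13, 8 passed through NP libraries alone and 2 through ESC libraries alone, and without the filter the median of all 14 was 1.63. Wnt1, a signal made in the midbrain at the isthmus, went from 2 counts over the ESC libraries to 24.98 ± 4.49 RPKM in NPs. Pou3f3 and Irx1 rose by 7.98 (SE 0.40) and 7.58 (SE 0.39) on the log2 scale, and Pax2, Pax5 and Meis2 rose as well. Fgf17, a growth factor of the isthmus, was at 17.9 ± 1.26 RPKM in ESCs and 0.250 ± 0.0968 in NPs (-6.14, SE 0.28), and Cnpy1 was at 13.5 ± 0.567 and 0.645 ± 0.279 RPKM (-4.38, SE 0.32). Otx2 fell as these 2 did, and En2, expressed beside them at the isthmus, did not pass the test.

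Of 16 genes of the forebrain and eye field, 5 passed the filter, 4 rose and 1 fell, with a median of 5.39. The 4 that rose passed through their NP libraries alone and the 1 that fell through its ESC libraries alone, so that they had to differ, and without the filter the median of all 16 was 2.66. Pax6, which is also expressed in the hindbrain and spinal cord, was at 0.350 ± 0.0204 RPKM in ESCs and 14.7 ± 2.82 RPKM in NPs. Lhx5 rose by 7.52 (SE 0.81) and Sp8 by 6.60 (SE 0.62) on the log2 scale, and Dmrta2 rose by 2.73 (SE 0.38). Hesx1, which acts with Otx2 in the anterior forebrain, was at 1.39 ± 0.863 RPKM in ESCs and 0.0509 ± 0.0215 RPKM in NPs (-4.66, SE 0.69). It passed the filter through ESC replicate 3 alone (2.39 RPKM, against 0.906 and 0.883), without which it was not tested, and its call was lost without each of the 3 NP libraries in turn. The other 11 genes, Rax, Six6 and Emx1 among them, stayed under 1 RPKM in every ESC and NP library, as Six3 did. Being under that level does not mean no change: without the filter 6 of the 16 genes were called higher and 1 lower.

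**Figure D4:**
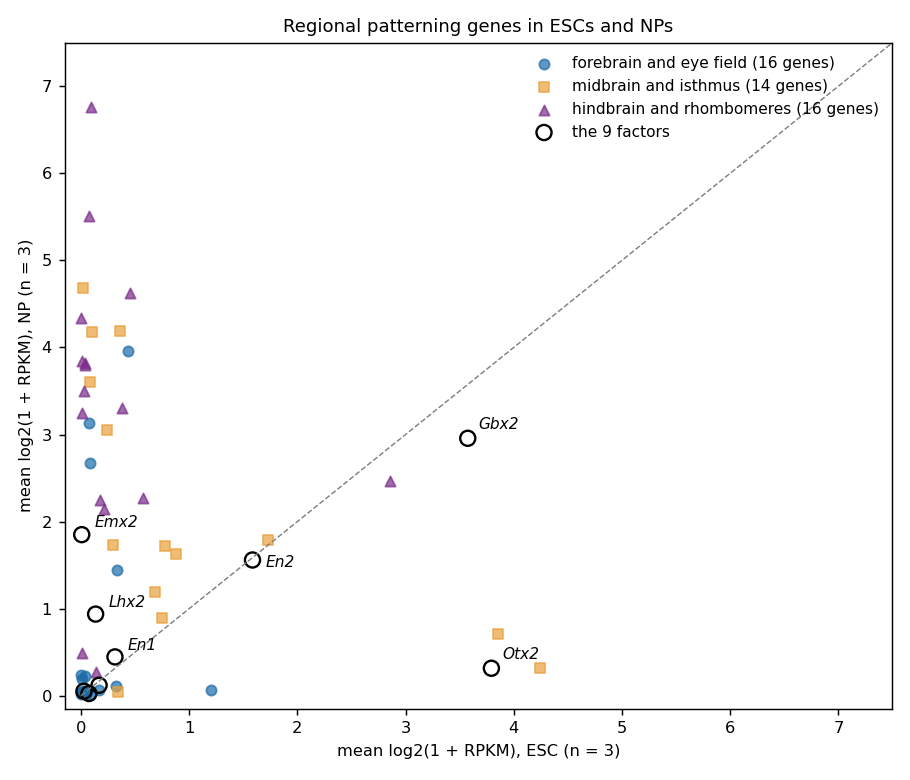
Mean log2(1 + RPKM) in ESCs (horizontal) and NPs (vertical) of genes from the forebrain, midbrain and hindbrain lists, with the 9 factors as open circles; the dashed line marks equal levels. Most hindbrain genes lie along the left edge, Gbx2 and En2 lie close to the line, and Otx2 lies at the lower right with Fgf17 and Cnpy1.

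In TET TKO cells Otx2 and Gbx2 varied more between libraries than in either other group. Otx2 was at 7.19, 3.995 and 1.49 RPKM, below every ESC library, with a log2 fold change of -1.62 (SE 0.48, adjusted p = 0.0335, edgeR) that did not pass. Relative to the median over all 13939 genes tested, which was 0.12 here and -0.05 with library sizes alone, it was -1.75. DESeq2 gave -1.74 (adjusted p = 0.000407), which passed, as did edgeR without the filter (adjusted p = 0.000640). Of the genes tested 2.31% were called, 1.1% higher and 1.21% lower. Of the calls 47.5% were higher, against 34.1% with library sizes alone. Of the 9 factors, 3 passed the filter and 0 were called by edgeR. An unadjusted p under 0.05 was reached by 1 of those 3, Otx2, and by 6477 of the 13939 genes tested. DESeq2 called 1 of the 3, Otx2, and 910 of the 13939 genes.

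Gbx2 was at 12.8, 10.7 and 1.42 RPKM in TET TKO cells, a range of 9.01 times, with a log2 fold change of -0.46 (SE 0.67, adjusted p = 0.619, edgeR). Without TET TKO replicate 3 it was 0.04. The antisense gene D130058E05Rik had 422, 189 and 189 counts in these libraries. In that library the summed genes of the primed epiblast list (10 genes, such as Dnmt3b) were at 377 CPM against 980 and 1185 CPM in the other TET TKO libraries, and the summed ESC markers at 4672 against 4225 and 3782 CPM. The part of this in the Otx2 and Gbx2 values was not tested. Between 10.04% and 12.5% of expressed genes differed by more than 2 times between that library and the others of its group, against 6.31% between the other 2. En2 was at 2.07, 1.26 and 1.24 RPKM, with a log2 fold change of -0.41 (SE 0.28, adjusted p = 0.281, edgeR).

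Otx1 stayed under 1 RPKM in TET TKO cells. It had 136, 66 and 61 counts, or 0.325, 0.170 and 0.130 RPKM, and the lowest TET TKO library was above the highest ESC library. Fitted without the filter, the log2 fold change against ESCs was 1.98 (SE 0.49, adjusted p = 0.00506, edgeR), short of the limit on p. Otx1 made up 4.09% to 8.06% of the summed RPKM of Otx1 and Otx2, against 0.261% to 0.516% in ESCs. Lhx2 was at 0.260, 0.223 and 0.377 RPKM, also above every ESC library, with 1.53 (SE 0.44, adjusted p = 0.0144) in that fit. Emx2 had 9, 15 and 8 counts against 1 over the ESC libraries, a ratio of normalised counts of 9.23 (95% exact interval 1.54 to 376). En1 (0.163, 0.230 and 0.172 RPKM), Egr2 (0.179, 0.165 and 0.164 RPKM) and Six3 (0.0143, 0.0231 and 0.0128 RPKM) had adjusted p-values of 0.638, 0.605 and 0.892 in that fit.

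No gene of the hindbrain, midbrain or forebrain lists was called between TET TKO cells and ESCs among 1, 4 and 1 genes tested, and no gene of the primed epiblast list among 10. Over all 13939 genes tested 2.31% were called, so the lack of calls among so few genes carries no weight. Hesx1 (1.79, SE 0.45, adjusted p = 0.0182, edgeR) and Fgf17 (-0.46, SE 0.53, adjusted p = 0.524) did not pass.

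Per length, the order in ESCs was Otx2, Gbx2, En2, En1, Egr2, Lhx2, Otx1, Six3 and Emx2. Gbx2 may stand too low in it, since its length includes the bases shared with D130058E05Rik. The ranges of Otx2 and Gbx2 overlapped, as did those of Egr2 and Lhx2, of Otx1 and Six3, and of Six3 and Emx2. In NPs Gbx2 came first, then Emx2, En2, Lhx2, En1 and Otx2, each overlapping the next, and below them Egr2, Six3 and Otx1, each overlapping the next. In TET TKO cells the order was Gbx2, Otx2, En2, Lhx2, Otx1, En1, Egr2, Emx2 and Six3, and neighbours overlapped except between En2 and Lhx2, Egr2 and Emx2, and Emx2 and Six3. At log2(1 + RPKM) of 1 or more stood 3 factors in ESCs (Otx2, Gbx2 and En2), 4 in NPs by their mean level (Gbx2, Emx2, En2 and Lhx2) and 3 in TET TKO cells (Gbx2, Otx2 and En2). Lhx2 reached it in NPs through NP replicate 2, and the mean of its log2 values there was 0.94.

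Over the 9 libraries and 15505 genes, the genes whose log2(1 + RPKM) followed each tested factor most closely were Yars (r = 0.995) and Thsd1 (0.994) for Otx2, Dab1 (0.962) and Ppp6r1 (0.961) for Gbx2, Mir7022 (0.943) and Rexo1 (0.934) for En2, Fgf9 (0.999) and Hoxc9 (0.998) for Emx2, and Lbp (0.984) and Sh3bgr (0.982) for Lhx2. These correlations describe 9 libraries in 3 groups and share their depth. Fgf9 was at 0.929 ± 0.549 RPKM in NPs and Hoxc9 at 1.08 ± 0.750 RPKM, and both were near 0 in ESCs, as Emx2 was.

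OTX2 was also the factor of these 9 whose motif was tested for its effect on methylation. In that assay (Hi-TransMet) a bacterial DNA fragment carrying the wild-type motif (WT) or its scrambled form (Sc) was placed in the genome, untreated (−SssI) or methylated beforehand by the M.SssI enzyme (+SssI), and bisulfite reads gave the percent methylation of each of 23 CpGs. The runs behind ESCs −SssI and NPs +SssI are shared by 2 samples each, so these pools are not reported here. The authors' pooled values averaged 81.6% for WT and 90.7% for Sc in NPs −SssI, where Otx2 was under 0.3 RPKM. With +SssI the averages were 54.5% and 66.3% in ESCs, where Otx2 stood at 11.4 to 14.3 RPKM, and 91.2% and 70.1% in TET TKO cells. The paper counts OTX2 as protecting DNA from methylation, with no effect on DNA that is already methylated. In its in vitro assay OTX2 lowered the activity of the methyltransferase DNMT1, less than SOX2 did. The paper's averages around all Sc motifs were higher than the OTX2 Sc value in both +SssI pools and lower than it in NPs −SssI. Against the same averages, OTX2 WT was close by in NPs −SssI, lower in ESCs +SssI and slightly higher in TET TKO cells. How much of each difference comes from the Sc fragment was not tested. Every CpG had at least 10 reads, and median coverage was 98 reads (Sc in TET TKO cells) to 852 reads. Pooled values carry no replicate error, and WT and Sc came in part from different sequencing runs. Within the 1 run that held both in ESCs +SssI, WT minus Sc was 42.0 percentage points over 5 CpGs. Over all runs it was -11.8 over all 23 CpGs and 2.83 over the 5 downstream CpGs, so values over unlike sets of CpGs are not directly comparable. Within 3 runs that held both in NPs −SssI, WT minus Sc was -8.44 over 23 CpGs and -11.5 and -11.0 over 18 CpGs each. Within 2 such runs in TET TKO cells it was 19.5 over 23 CpGs and -2.43 over 5 CpGs.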

How the data were processed

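RNA-Seq libraries of ESCs, NPs and TET TKO ESCs (3 per group) were analysed. The authors trimmed 50-base single-end reads, mapped them with STAR to GRCm38 and deposited raw counts per gene from featureCounts 1.6.2 (Ensembl 89 exons, strand ignored); per the file headers each gene's exonic length is given. The submitters' processing notes name STAR 2.6.1b and Trimmomatic 0.38. The authors also deposited the percent methylation of each CpG of the inserted fragments, with at least 10 reads and runs pooled, and counts of reads per run, and 3 of the 5 pools are reported. Groups were taken from the sample labels, and 51 columns of single sequencing runs, which match no single sample, were not used. The methods call the replicates biological; where they shared a culture, p-values measure only the spread between libraries.

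RPKM and CPM were computed from the counts with TMM library sizes. NPs and TET TKO cells were each tested against ESCs with edgeR 4.0.16 (quasi-likelihood F-test, R 4.3.3), over genes with at least 1 RPKM in at least 1 library of the comparison, with Benjamini-Hochberg adjustment over all of them. A gene counted as called with a fold change of 3 or more and an adjusted p below 0.001. The ESC libraries served both comparisons, so the fold changes against them share that error. The alternatives were DESeq2 1.42.0, library sizes alone, other filters and limits, a joint fit of all groups, a block for the replicate number, and omission of single libraries. On simulated counts, 40.8% of genes changed by a fold of 3 and 84% of those changed by a fold of 4 were recovered for NPs (14216 genes), and 44.7% and 83.3% for TET TKO cells (13293 genes). Intervals cover counting error only. Pairs of libraries within a group differed beyond counting noise (chi-square per gene 2.37 to 194), so each counted once.

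The 9 genes and the gene lists were chosen with earlier results of these data known. Named genes are the 9 factors, up to 3 called genes with the largest fold change in each direction of a list, and the 2 genes most correlated with each tested factor; Epha4, Meis2, Pax2, Pax5, Dmrta2, Rax, Six6, Emx1 and the genes overlapping a factor were named after their values were seen, as were Meox1 and Tet1 to Tet3. Gene names came from the annotation table (51633 of 51912 identifiers matched). Promoter windows are from RefSeq on GRCm38.p6, with 7 of the 9 factors in 15 windows.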

Additional observations from a re-analysis of the deposited data

How the results depend on the processing

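Otx2 kept its direction and its call in NPs under every alternative run, and Emx2 did so except without ESC replicate 3 and where at least 10 counts in every library were asked for, which left Emx2 untested and 1 factor called. Genes called in NPs numbered 3408, and 6218 when 0.05 and a fold of 2 were the limits, 1911 at a log2 fold change of 3 and 5281 with no filter; leaving out 1 library gave 2464 to 3413 genes and 1 to 2 factors. In TET TKO cells 322 genes were called, against 2179 and 152 under those limits, 910 with DESeq2 and 1263 with no filter. Leaving out 1 library gave 50 to 329 genes there (50, 59 and 74 without ESC replicates 1, 2 and 3, and 126 and 190 without TET TKO replicates 1 and 2) and 0 factors. The looser limits, DESeq2 and no filter each called 1 factor there, Otx2. The log2 fold change of Otx2 in TET TKO cells was -2.25 to -1.21 with 1 library left out. That of En2 in NPs turned to -0.0070 with DESeq2 and ranged from -0.52 to 0.28 with 1 library left out (-0.10 without ESC replicate 3), and that of Gbx2 in TET TKO cells ranged from -0.92 to 0.041, the latter without TET TKO replicate 3. Lhx2 was called in NPs under 5 alternatives. In TET TKO cells the midbrain list had 1 called gene with library sizes alone, with no filter or either other filter, and under the looser limits. The primed epiblast list had 2 with DESeq2, with no filter and with the block, 4 under the looser limits and 1 without TET TKO replicate 3. Without division by gene length, 5 factors in TET TKO cells stood at the level of 1. Over the 5 downstream CpGs of the OTX2 fragment, WT minus Sc was 2.83 percentage points in ESCs +SssI, -0.13 in NPs −SssI and 7.04 in TET TKO cells. The causes were not tested. Of the remaining comparisons of a value with its alternatives, 182 counted as the same. For a fold change this meant the same direction and call. For a number of genes or factors it meant a ratio within a set limit, and for a methylation difference a shift within its counting interval.

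The labels do not say whether replicate numbers pair the samples. The correlations of same-numbered libraries were -0.06, 0.01 and -0.12 between ESCs and NPs. Between ESCs and TET TKO cells they were -0.08, 0.31 and 0.21, against -0.39 to 0.19 for unlike numbers, which does not settle whether the numbers pair there. With the replicate number as a block, 3415 genes were called in NPs and 674 in TET TKO cells, En2 in NPs was at -0.072 and Lhx2 was called. In TET TKO cells Otx2 was at -1.86 (adjusted p = 0.00646, edgeR). Genes at a few counts limit the folds of Otx1, Six3, Egr2 and En1.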

Other observations

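Of 10 listed genes of the primed epiblast, a state in which Otx2 is expressed, 9 were tested in NPs, 2 rose, 1 fell and the median log2 fold change was -0.06. Over all genes tested 12.4% rose and 9.98% fell, so that these numbers carry no weight of their own. Sox3 was at 2.14 ± 0.466 RPKM (SD, n = 3) in ESCs and 61.5 ± 27.1 RPKM in NPs, and Sall2 at 3.45 ± 0.767 and 37.8 ± 6.51 RPKM. Dnmt3b, a de novo methyltransferase, fell from 57.6 ± 5.49 to 6.16 ± 1.23 RPKM. In TET TKO cells Fgf5, a marker of the primed state, had a log2 fold change of 3.62 (SE 0.54, adjusted p = 0.00243, edgeR) and Pou3f1 of 2.13 (SE 0.38, adjusted p = 0.00492), and neither passed the limit of 0.001. Other genes of the list went the other way, T at -1.97 (SE 0.62, adjusted p = 0.0421, edgeR) and Zic5 at -0.46 (SE 0.13, adjusted p = 0.0259) among them. The median of the 10 genes was 0.51. With limits of 0.05 and a fold of 2, 3 of them were called higher and 1 lower. Fgf5, Pou3f1, T and Zic5 were named after their values were seen. Zfp42, an ESC marker, was the listed marker called there, at 304 ± 5.63 RPKM in ESCs and 50.6 ± 11.03 RPKM in TET TKO cells.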
